A study of Rattus norvegicus with 6 samples.

Results

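The genes described here are those of the rat major histocompatibility complex (MHC), whose symbols start with RT1-, together with 8 genes that process antigen for MHC molecules: B2m, Cd74, Ciita, Tap1, Tap2, Tapbp, Psmb8 and Psmb9. They were measured on microarrays, where a group of short probes, called a probe set, reports the level of a transcript. A probe set was a member if the platform annotation named 1 gene for it and that gene was on this list. This gave 47 of the 28879 probe sets of the deposited table, 1 per gene, where the annotation names 18166 genes in all: 29 of class I, 10 of class II and 8 of antigen processing. A further 3 probe sets carry several RT1- genes and are described apart. Of the 47 genes, 44 lie on chromosome 20 of the rat assembly GRCr8. B2m, Ciita and Cd74 lie on chromosomes 3, 10 and 18.

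RNA came from the thoracic aorta, cleaned of the fat around it, of rats aged 24 weeks that received no treatment beyond a blood pressure reading at the tail. There were 3 arrays for SHR, the spontaneously hypertensive rat, which is inbred for high blood pressure, and 3 for WKY, the Wistar-Kyoto rat, its normotensive control from the same stock. The labels give no substrain, do not say whether RNA was pooled and do not say that each array held a different animal. The p-values therefore cover the spread between the 6 samples alone, and that spread may be technical. Levels are log2 values made by the authors with RMA, a method that corrects background, normalizes arrays to each other and joins each probe set's probes into 1 value. Array medians were 2.29 to 2.52. No detection call is given, so a level near or under 2.52 is not shown to lie above background. WKY replicate 3 stood apart: its median was the highest and its values spread least (SD 2.12, where the rest had 2.22 to 2.27). Its fitted array weight was 0.22, the others being 0.692 to 2.05. Markers of smooth muscle, the main cell of the aortic media, averaged 9.57, 9.80 and 9.89 on the SHR arrays and 9.69, 9.89 and 9.89 on the WKY arrays.

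MHC class I molecules are heavy chains that pair with beta-2-microglobulin and show peptides from inside the cell to CD8 T cells and natural killer cells. The immunoproteasome cuts these peptides, the TAP transporter brings them into the endoplasmic reticulum and tapasin helps to load them. MHC class II molecules pair an alpha with a beta chain, show peptides from engulfed material to CD4 T cells and are made chiefly by macrophages, dendritic cells and B cells. Interferon gamma induces both pathways. The rat complex holds few classical class I genes, named RT1-A, and many further class I genes in the C/E, N, S, T24 and M groups. Their copies are alike and vary between strains, so a probe set named for 1 of them may also bind RNA of its neighbours. A difference between strains in the sequence under the probes was not tested.

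The sequences just before 8 members' starts are shown as examples. They are those of 2 pairs of neighbouring RT1-CE genes whose strain differences had opposite signs, and of 4 class II chains of the D and B isotypes, and were chosen after the values and motif matches had been seen. Each is the 200 bases before the start that RefSeq annotates in GRCr8, which is a BN rat and neither SHR nor WKY. Capitals mark matches on either strand to 4 motifs: GGGATTCCC for the kappa B site of class I enhancer A, TTTCNCTT for the core of the interferon-stimulated response element, AGNNACNGA for the core of the X1 box, and CCAAT, the Y box of class II promoters, read there as ATTGG. RT1-Da lies at chr20:4515215-4515414 (plus strand), RT1-Db1 at chr20:4560163-4560362 (minus), RT1-Ba at chr20:4576857-4577056 (plus) and RT1-Bb at chr20:4604119-4604318 (minus). RT1-CE16 lies at chr20:3265444-3265643, RT1-CE15 at chr20:3283771-3283970, RT1-CE5 at chr20:3484091-3484290 and RT1-CE4 at chr20:3509157-3509356, each on the minus strand.
RT1-Da: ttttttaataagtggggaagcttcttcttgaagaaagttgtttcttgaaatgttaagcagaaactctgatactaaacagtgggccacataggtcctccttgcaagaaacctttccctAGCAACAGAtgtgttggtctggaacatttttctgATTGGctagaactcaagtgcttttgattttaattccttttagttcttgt
RT1-Db1: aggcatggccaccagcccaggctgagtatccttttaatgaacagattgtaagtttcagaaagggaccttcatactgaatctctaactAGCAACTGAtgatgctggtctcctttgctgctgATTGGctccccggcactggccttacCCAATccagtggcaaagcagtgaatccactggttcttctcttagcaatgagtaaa
RT1-Ba: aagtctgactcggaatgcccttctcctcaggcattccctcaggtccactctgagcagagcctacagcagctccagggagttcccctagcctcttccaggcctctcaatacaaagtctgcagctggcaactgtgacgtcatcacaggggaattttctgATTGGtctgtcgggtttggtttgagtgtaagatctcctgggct
RT1-Bb: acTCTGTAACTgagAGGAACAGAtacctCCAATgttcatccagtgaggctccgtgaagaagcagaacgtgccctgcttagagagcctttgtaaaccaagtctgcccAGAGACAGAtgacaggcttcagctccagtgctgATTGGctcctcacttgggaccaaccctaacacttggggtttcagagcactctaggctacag
RT1-CE16: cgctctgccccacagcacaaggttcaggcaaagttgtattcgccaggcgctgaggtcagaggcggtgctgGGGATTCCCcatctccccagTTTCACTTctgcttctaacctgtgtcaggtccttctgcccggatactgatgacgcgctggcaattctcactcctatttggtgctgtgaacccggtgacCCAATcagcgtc
RT1-CE15: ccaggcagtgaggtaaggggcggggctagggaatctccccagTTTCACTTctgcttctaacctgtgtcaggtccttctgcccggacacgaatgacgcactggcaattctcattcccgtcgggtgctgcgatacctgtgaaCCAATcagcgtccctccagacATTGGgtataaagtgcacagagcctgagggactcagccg
RT1-CE5: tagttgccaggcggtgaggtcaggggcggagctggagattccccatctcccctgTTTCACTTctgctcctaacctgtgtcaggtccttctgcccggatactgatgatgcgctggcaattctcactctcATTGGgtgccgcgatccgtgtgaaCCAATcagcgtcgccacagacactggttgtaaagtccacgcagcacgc
RT1-CE4: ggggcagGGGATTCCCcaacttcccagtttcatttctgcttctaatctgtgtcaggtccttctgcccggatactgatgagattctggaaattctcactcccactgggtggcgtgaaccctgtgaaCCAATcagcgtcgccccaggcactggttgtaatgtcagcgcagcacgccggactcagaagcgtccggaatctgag

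A promoter sequence was found for 43 of the 47 members. The Y box letters stood in 9 of 9 class II promoters, 17 of 27 class I promoters and 29.2% of all 33469 promoters. The X1 letters stood in 7 of 9 class II promoters, 5 of 27 class I promoters and 11.5% of all. An X1 match followed 30 to 35 bases later by an inverted Y box stood in RT1-Da, RT1-Db1, RT1-Db2, RT1-Bb, RT1-DOb and the class I gene RT1-CE10, which are 6 of only 14 such promoters in the table (0.0418%). The kappa B letters stood in 5 of the members' promoters, all of RT1-CE genes, and in 0.233% of all promoters. The interferon element stood in 11 of 27 class I promoters, 2 of 6 promoters of class I processing genes, 0 of 9 class II promoters and 5.78% of all. A kappa B site followed 18 to 22 bases later by the interferon element stood in 7 promoters of the table: RT1-CE10, RT1-CE11, RT1-CE13, RT1-CE16 and the classical RT1-A1, RT1-A2 and RT1-A3. RT1-CE12 and RT1-CE2, not shown, matched none of the 4 motifs in their windows. RT1-CE4 has the kappa B letters without the interferon element, while RT1-CE5, RT1-CE15 and RT1-CE3 have the interferon element without the kappa B letters. RT1-CE2 and RT1-CE3 overlapped between strains (differences -0.19 and -0.08). All of these motifs are matches of letters, not shown sites, and the spacings were chosen after the sequences had been seen. A relation of the letters to the strain differences was not tested.

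The strains were compared with limma, a linear model fitted to 21659 probe sets whose mean level was at or above the 25th percentile, with Benjamini-Hochberg adjustment over all of them. The comparison asks which MHC and antigen processing genes differ in the aorta of the hypertensive strain. Of the members, 40 were tested and 7 dim class I probe sets (RT1-M1-4, RT1-M4, RT1-M5, RT1-M6-1, RT1-O1, RT1-S2 and RT1-T24-1) were below the filter. None of the 40 passed an adjusted p of 0.05 in limma, where 0.0693% of all tested probe sets passed. At an unadjusted p under 0.05 there were 9 of 40 members (22.5%), against 5.55% of all tested probe sets. Of these 9, 6 were higher in SHR (background 3.01%) and 3 lower (background 2.54%). Over all 47 members the SHR and WKY arrays did not overlap for 10, with 4 higher in SHR (5.68% of the whole table) and 6 lower (5.41%). The median absolute difference was 0.20 log2 units over the members and 0.14 over the whole table, while the median signed differences were -0.08 and -0.01. The members share sequence and a chromosome region, so they are not independent of each other.

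The widest differences lay in the RT1-CE group, class I genes that stand side by side, and they ran in opposite directions. Of 10 RT1-CE genes, 5 had an unadjusted p under 0.05, where 5.55% of all tested probe sets had one. RT1-CE4, RT1-CE12 and RT1-CE16 had higher values in SHR, and RT1-CE5 and RT1-CE15 had lower values. The group was set apart after its values had been seen, so this count is no test of it. RT1-CE5 lay at 2.59, 2.09 and 1.80 on the 3 SHR arrays, against 4.43, 3.71 and 3.40 on the 3 WKY arrays. Every SHR array was below every WKY array, and the SHR levels are near or under the array medians. The difference was -1.69 ± 0.31 log2 units (SE; limma unadjusted p = 0.000762, adjusted p = 0.261).

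RT1-CE4, the next member in order along the chromosome, lay at 3.29, 2.19 and 3.20 in SHR, against 1.68, 1.68 and 1.59 in WKY. All 3 SHR arrays were above all 3 WKY arrays, and the WKY levels and SHR replicate 2 lie below every array median. The difference was 1.24 ± 0.29 (SE; limma adjusted p = 0.463). Within each array, RT1-CE4 minus RT1-CE5 was 0.71, 0.10 and 1.40 in SHR and -2.75, -2.03 and -1.81 in WKY, so the pair differed in opposite ways by 2.93 log2 units in all. The pair was chosen after its values had been seen.

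At the other end of the group, RT1-CE16 lay at 3.99, 4.46 and 3.99 in SHR, against 3.33, 3.39 and 2.64 in WKY, a difference of 1.03 ± 0.25 (SE; limma adjusted p = 0.474). RT1-CE12 lay at 5.80, 5.28 and 4.92 in SHR, against 4.41, 3.67 and 4.56 in WKY, a difference of 1.12 ± 0.30 (SE; limma adjusted p = 0.577). For both genes every SHR array was above every WKY array and the levels lay over the array medians. Between them in order, RT1-CE15 lay at 1.2, 0.73 and 0.63 in SHR, against 1.40, 1.40 and 1.91 in WKY (difference -0.71, limma adjusted p = 0.703). All 6 of its values are under the array medians, so RT1-CE15 is not shown to be expressed in either strain.

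**Figure D1:**
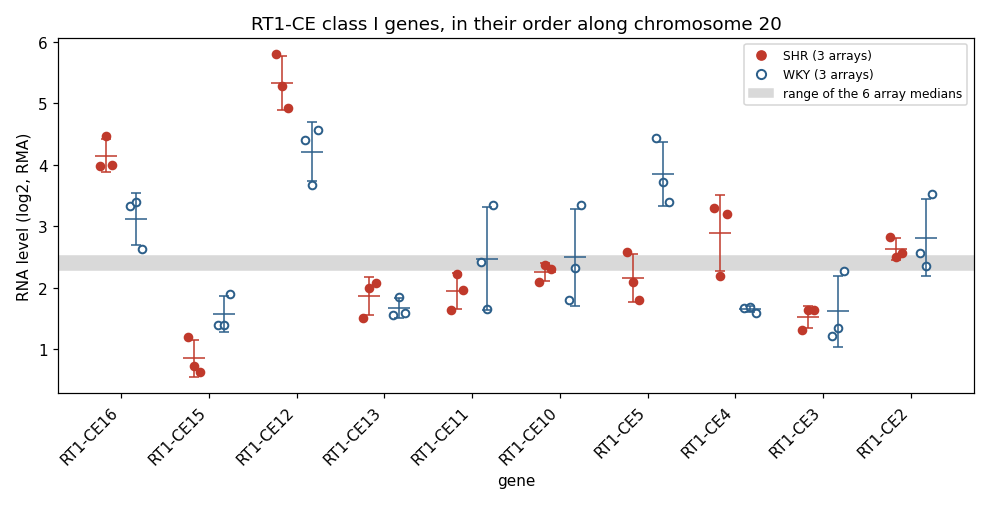
RNA levels (log2, RMA) of the 10 RT1-CE class I genes on each array, SHR filled and WKY open, with the mean and SD of 3 arrays as bars, the genes in their order along chromosome 20 and a grey band for the range of the array medians. RT1-CE16, RT1-CE12 and RT1-CE4 lie higher on every SHR array, RT1-CE15 and RT1-CE5 lie lower, and for several dim genes WKY replicate 3 is the highest array.

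The other 5 RT1-CE genes overlapped between strains. RT1-CE13, RT1-CE11, RT1-CE10, RT1-CE3 and RT1-CE2 differed by 0.20, -0.53, -0.24, -0.08 and -0.19. WKY replicate 3 was the highest of the 6 arrays for 5 of the 10 RT1-CE genes. RT1-CE11 lay at 1.65, 2.23 and 1.97 in SHR, against 2.43, 1.66 and 3.34 in WKY. WKY replicate 3 was far above the next array, and the difference was -0.10 without it. Without that array the differences of RT1-CE10, RT1-CE3 and RT1-CE2 turned to 0.19, 0.25 and 0.17. Those of RT1-CE5, RT1-CE4, RT1-CE12, RT1-CE15 and RT1-CE16 kept their sign and an unadjusted p under 0.05 whichever single array was left out. RT1-CE5 ranged from -1.91 to -1.40 in these 6 fits and RT1-CE4 from 1.04 to 1.60.

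**Figure D2:**
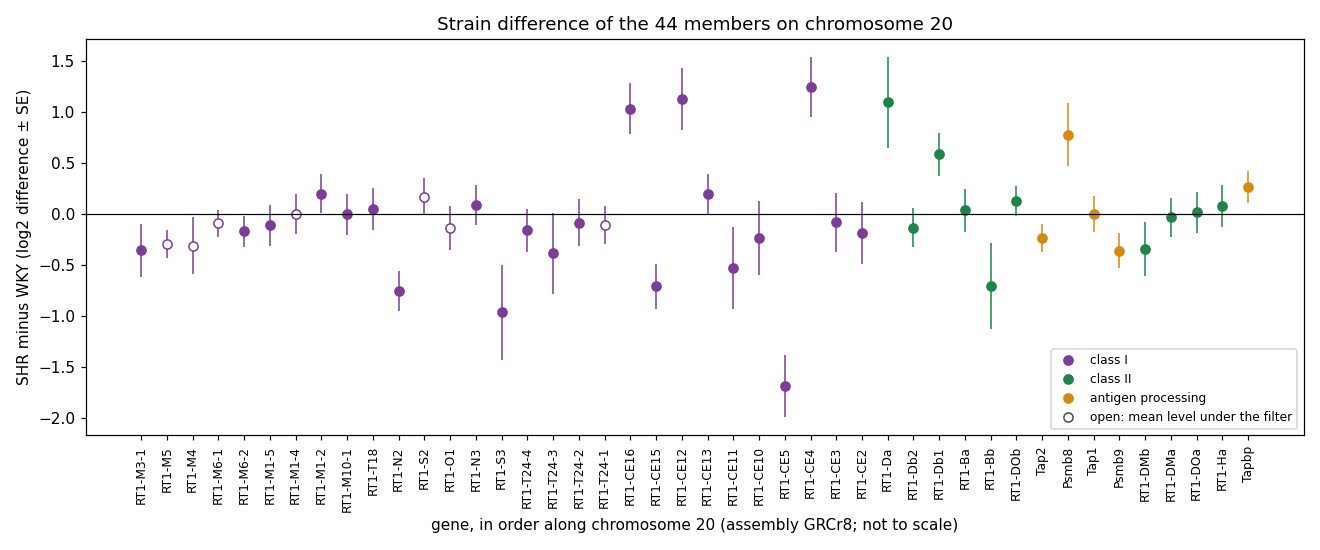
SHR minus WKY (log2 difference, with SE) of the 44 members on chromosome 20, in order but not to scale, coloured by class I, class II and antigen processing, with open points for members under the filter on dim probe sets. The differences run from -0.36 to 0.20 over the M group at the left, and spread from -1.69 to 1.24 within the RT1-CE group.

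The probe sets of several genes cannot be given to 1 of them. The one annotated to RT1-A2, RT1-A3 and RT1-A1, the classical class I genes, lay at 4.18, 4.03 and 3.92 in SHR, against 3.90, 3.94 and 4.86 in WKY. The strains overlapped, with WKY replicate 3 far above the other 5 arrays, and the difference turned with that array, being -0.19 with it and 0.12 without it. The one annotated to RT1-CE1 and RT1-CE12 lay at 9.04, 8.84 and 8.64 in SHR, against 8.34, 8.28 and 8.24 in WKY. Every SHR array was above every WKY array, by 0.55 ± 0.16 on average (SE; limma unadjusted p = 0.00831, adjusted p = 0.617). That is the same direction as the probe set of RT1-CE12 alone. The third, of RT1-CE11 and RT1-CE7, differed by -0.09.

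Outside the RT1-CE group, 4 further class I genes, RT1-N2, RT1-S3, RT1-T24-3 and RT1-M3-1, had mean levels well over the array medians. RT1-N2 lay at 2.91, 3.32 and 2.92 in SHR, against 3.60, 3.74 and 4.08 in WKY, with no overlap and a difference of -0.76 ± 0.19 (SE; limma unadjusted p = 0.00533, adjusted p = 0.529). Its difference stayed between -0.89 and -0.62 when single arrays were left out. RT1-S3, whose RefSeq synonym H2-T23 is the mouse gene of Qa-1, a ligand of CD94/NKG2 receptors on natural killer cells, lay at 5.29, 3.85 and 3.50 in SHR, against 5.57, 5.28 and 4.69 in WKY. SHR replicate 1 lay among the WKY arrays and the other SHR arrays lay below all of them. The difference was -0.97 with all arrays (limma adjusted p = 0.923) and ranged from -1.50 without SHR replicate 1 to -0.61 without SHR replicate 3.

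RT1-T24-3 lay at 5.02, 4.10 and 3.69 in SHR, against 5.13, 4.81 and 4.04 in WKY, and the strains overlapped. Its difference of -0.39 (limma adjusted p = 0.923) ranged from -0.76 to -0.10 when single arrays were left out. RT1-M3-1, whose mouse counterpart H2-M3 presents formylated bacterial peptides, lay at 3.95, 4.34 and 3.44 in SHR, against 4.36, 3.95 and 4.50 in WKY, and the strains overlapped (difference -0.36, limma adjusted p = 0.923). That difference was -0.12 without SHR replicate 3.

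The other 15 class I genes outside the RT1-CE group were dim, with mean levels of 0.61 (RT1-T24-1) to 2.67 (RT1-M10-1). Among them, RT1-M10-1 and RT1-T24-2 are long non-coding RNA genes in RefSeq and count as class I by symbol alone. The M group, whose mouse M1 and M10 counterparts are known from vomeronasal neurons, holds 9 of the members, and 8 of them had lower means in SHR. RT1-M1-2 was the exception, with a difference of 0.20. Of the lower ones, RT1-M1-4 and RT1-M10-1 differed by only -0.003 and -0.006. The mean level of the M group was 1.55, 1.77 and 1.64 in SHR, against 1.71, 1.65 and 2.00 in WKY. The strains overlapped in it, and WKY replicate 3 was the highest array. RT1-M5 did not overlap between strains, at 0.90, 1.11 and 1.0 in SHR, against 1.34, 1.13 and 1.42 in WKY, but all of these values are far below the array medians. RT1-T18 and RT1-N3 lay near 2.63 in the mean over all arrays and differed by 0.05 and 0.09. In all, 17 of the 29 class I members had a mean below every array median. The median difference of the 29 was -0.11, beside -0.01 for all tested probe sets, with 21 of them below 0. It was -0.01 without WKY replicate 3, and 0.054 with SHR replicate 1 left out as well.

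Class II genes did not all differ in 1 direction. The alpha chain and the first beta chain of the D isotype, the rat counterpart of human DR, were higher in SHR at an unadjusted p under 0.05, while RT1-Bb, the beta chain of the B isotype that corresponds to human DQ, was lower on average. RT1-Da, the D alpha chain, lay at 7.63, 6.68 and 5.83 in SHR, against 5.99, 5.75 and 5.12 in WKY. SHR replicates 1 and 2 were above all WKY arrays, and SHR replicate 3 was within the WKY range. The difference was 1.09 ± 0.45 (SE; limma unadjusted p = 0.042, adjusted p = 0.886), and it was 0.64 once SHR replicate 1 was left out and 0.39 when WKY replicate 3 was left out as well.

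RT1-Db1, the D beta chain, lay at 3.74, 3.47 and 3.48 in SHR, against 3.32, 2.58 and 3.04 in WKY, with no overlap (difference 0.58 ± 0.21, SE; limma unadjusted p = 0.0277, adjusted p = 0.852). It was the only class II member of 10 whose strains did not overlap, a share near that of the whole table (5.68% higher and 5.41% lower in SHR). RT1-Db2, a second D beta gene, was dim and differed by -0.14. RT1-Ba, the B alpha chain, lay at 3.32, 3.14 and 2.65 in SHR, against 3.17, 2.80 and 3.03 in WKY, and the arrays of the strains were mixed (difference 0.03, limma adjusted p = 0.987).

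RT1-Bb lay at 4.04, 3.70 and 2.26 in SHR, against 4.02, 3.95 and 4.17 in WKY. The WKY arrays lay close together, SHR replicate 1 among them and SHR replicate 3 far below. The difference of -0.71 ± 0.43 (SE; limma adjusted p = 0.923) was -0.17 without that array. Within each array, RT1-Da minus RT1-Bb was 3.59, 2.98 and 3.57 in SHR and 1.97, 1.80 and 0.96 in WKY. These differences between members of 1 array did not overlap, and they differed by 1.80 between strains in a pair chosen after its values had been seen. RT1-Da minus RT1-Db1 and RT1-Da minus Cd74 overlapped between strains, with differences of 0.51 and 0.31. As shown above, the promoters of RT1-Da, RT1-Db1 and RT1-Bb share the X1 and Y letters at 33 to 34 bases. RT1-Ba matched the Y letters alone. The fixed X1 letters miss an X1 box that is spelled otherwise, so RT1-Ba is not shown to lack one. RT1-Da and RT1-Db1, and the processing gene Psmb8, had an unadjusted p over 0.05 in at least 1 of the 6 fits that leave out a single array.

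The genes that load and edit class II peptides gave smaller values. RT1-DMa, the alpha chain of the peptide exchange factor DM, lay at 4.86, 4.75 and 4.32 in SHR, against 4.74, 4.51 and 4.79 in WKY. RT1-DMb, its beta chain, lay at 3.87, 3.41 and 3.27 in SHR, against 4.36, 3.51 and 3.69 in WKY (difference -0.34, limma adjusted p = 0.923). Both overlapped between strains. RT1-DOa and RT1-DOb, the chains of DO, which restrains DM, lay at 2.46, 2.40 and 2.32 and 2.26, 2.28 and 2.08 in SHR, against 2.08, 2.27 and 2.79 and 1.95, 2.21 and 2.07 in WKY, around or under the array medians. RT1-Ha, an alpha gene of the H isotype, was also dim and differed by 0.07. The median difference of the 10 class II members was 0.02.

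Cd74, the invariant chain that guides class II molecules to the peptide-loading compartment, was bright, at 9.49, 8.85 and 7.84 in SHR, against 8.37, 7.92 and 7.54 in WKY. SHR replicates 1 and 2 were above every WKY array and SHR replicate 3 was not. The difference was 0.78 ± 0.42 (SE; limma adjusted p = 0.923), and ranged from 0.40 to 1.23 when single arrays were left out. Ciita, the coactivator that switches on class II genes, lay at 2.51, 2.16 and 2.44 in SHR, against 1.91, 2.21 and 2.35 in WKY, so it is not shown to lie above background (difference 0.22).

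**Figure D3:**
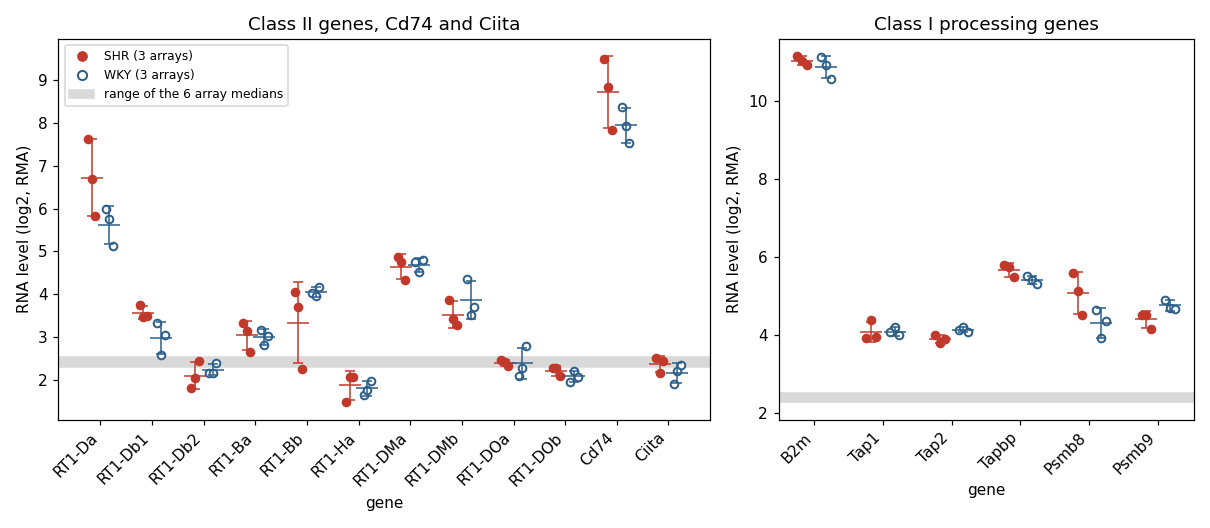
RNA levels (log2, RMA) of the class II genes, Cd74 and Ciita (left) and of the class I processing genes (right) on each array, SHR filled and WKY open, with the mean and SD of 3 arrays as bars and a grey band for the range of array medians. RT1-Da, Cd74 and Psmb8 spread more among the SHR arrays than among the WKY arrays, and RT1-Bb lies below the band on 1 SHR array.

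In the class I processing pathway no gene passed, and the subunits of the immunoproteasome had differences of both signs. Psmb8 lay at 5.61, 5.15 and 4.53 in SHR, against 4.66, 3.92 and 4.38 in WKY, and only SHR replicate 3 overlapped the WKY arrays (difference 0.78 ± 0.31, SE; limma unadjusted p = 0.0376, adjusted p = 0.882). Psmb9 lay at 4.54, 4.53 and 4.16 in SHR, against 4.92, 4.70 and 4.69 in WKY, every SHR array below every WKY array (difference -0.36 ± 0.17, SE; limma unadjusted p = 0.0657, adjusted p = 0.921). Psmb8 minus Psmb9 within an array was 1.07, 0.62 and 0.37 in SHR and -0.26, -0.78 and -0.31 in WKY, which did not overlap. The pair was chosen after its values had been seen. It joins differences of opposite sign, so its separation adds no support to either. Psmb10, the remaining subunit, is a gene of the class I pathway list and lay at 4.65, 4.61 and 3.80 in SHR, against 4.82, 4.69 and 4.75 in WKY, every SHR array below every WKY array (difference -0.40, limma unadjusted p = 0.14, adjusted p = 0.923).

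Tap1 and Tap2, the subunits of the peptide transporter, lie next to these genes. Tap1 lay at 3.93, 4.40 and 3.96 in SHR, against 4.08, 4.21 and 4.00 in WKY, with a difference of 0.00. Tap2 lay at 4.02, 3.80 and 3.91 in SHR, against 4.15, 4.22 and 4.08 in WKY, without overlap but by a small difference of -0.24 ± 0.14 (SE; limma adjusted p = 0.923). Tapbp, which encodes tapasin, lay at 5.81, 5.75 and 5.49 in SHR, against 5.52, 5.42 and 5.32 in WKY (difference 0.26, limma adjusted p = 0.923). B2m, the light chain of all class I molecules, was bright on every array, at 11.16, 11.03 and 10.93 in SHR, against 11.14, 10.93 and 10.58 in WKY, and its difference of 0.16 ± 0.18 (SE; limma adjusted p = 0.93) was 0.01 without WKY replicate 3. The median difference of the 8 processing members was 0.19.

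Among the SHR arrays, Cd74, RT1-Da, RT1-Bb, RT1-S3 and RT1-T24-3 were highest on replicate 1 and lowest on replicate 3. Many other members had this order too, among them RT1-CE5, RT1-CE12, RT1-CE15, Psmb8, Psmb9, B2m, Tapbp, RT1-Ba, RT1-DMa and RT1-DMb. Others, such as RT1-CE16, RT1-CE4, RT1-N2 and Tap1, did not. The mean levels of the marker lists for leukocytes, macrophages, white adipocytes, endothelium, fibroblasts and dendritic cells had the same order. Those of the B cell list, the T and natural killer cell list and the pathway lists described below had it too. Only the mean of the smooth muscle markers rose from SHR replicate 1 to 3 (9.57, 9.80 and 9.89). The mean of 5 pan-leukocyte markers (Ptprc, Cd53, Laptm5, Coro1a and Itgb2) was 4.49, 3.53 and 2.73 on SHR replicates 1 to 3, against 3.70, 3.29 and 3.05 on WKY replicates 1 to 3. The mean of 12 macrophage markers was 5.56, 4.19 and 3.46 in SHR, against 4.96, 4.14 and 4.32 in WKY. That of 7 white adipocyte markers was 8.16, 6.25 and 4.45 in SHR, against 8.0, 6.57 and 6.59 in WKY. That of 6 endothelial markers was 6.27, 4.8 and 4.06 in SHR, against 6.16, 5.58 and 5.39 in WKY. SHR replicate 1 was the highest array and SHR replicate 3 the lowest array for each of these 4 means, so the strains overlap in all of them. The same held for the mean of 7 fibroblast markers, at 9.02, 8.47 and 7.80 in SHR, against 8.78, 8.75 and 8.58 in WKY. It held too for that of 8 dendritic cell markers, at 2.65, 2.35 and 2.31 in SHR, against 2.48, 2.42 and 2.48 in WKY. Single markers could differ from the mean of their list. Among the SHR arrays alone, the fibroblast markers Col1a1 (8.98, 9.15 and 9.09 on SHR replicates 1 to 3) and Col1a2 were lowest on replicate 1. The dendritic cell marker Zbtb46 rose from SHR replicate 1 to 3 (3.21, 3.44 and 3.85). Xcr1 of the dendritic cell list and Marco of the macrophage list were, among the SHR arrays, lowest on replicate 2.

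The summed levels of the pan-leukocyte list ran from 13.6 to 22.4 on the SHR arrays and 15.2 to 18.5 on the WKY arrays, and those of the macrophage list from 41.5 to 66.7 on the SHR arrays and 49.7 to 59.5 on the WKY arrays. The sums for fibroblasts were 54.6 to 63.1 on the SHR arrays and 60 to 61.5 on the WKY arrays. None of the markers in these 6 lists passed over all probe sets. The lists held 5 pan-leukocyte, 12 macrophage, 7 white adipocyte, 6 endothelial, 7 fibroblast and 8 dendritic cell markers, all tested. At an unadjusted p under 0.05 there were 2, the endothelial Cldn5 (-0.99) and the fibroblast gene Pi16 (-1.54), where 5.55% of all tested probe sets had one. All 6 measured B cell markers (Cd79a, Cd79b, Ms4a1, Blk, Cr2 and Fcrla) had means under the highest array median, as did 10 of 13 T and natural killer cell markers and 5 of 8 dendritic cell markers (Flt3, Clec9a, Xcr1, Itgax and Ccr7). The summed levels were 9.13 to 10.2 on the SHR arrays and 8.19 to 11.3 on the WKY arrays for B cells, 24.7 to 28 on the SHR arrays and 26 to 26.2 on the WKY arrays for T and natural killer cells, and 18.5 to 21.2 on the SHR arrays and 19.4 to 19.8 on the WKY arrays for dendritic cells. In whole aorta, fewer cells of a type and less RNA per cell cannot be told apart.

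The pan-leukocyte mean was added to the fit, which was decided once the values were known. The difference of RT1-Da was then 0.85 (limma unadjusted p = 0.00145, adjusted p = 0.211) and that of Cd74 was 0.55 (unadjusted p = 0.0126, adjusted p = 0.488). RT1-Bb and RT1-S3 were lower in SHR, by -0.91 and -1.22 (limma unadjusted p = 0.0132 and 0.000551, adjusted p = 0.5 and 0.127). In that fit 14 of 40 members had an unadjusted p under 0.05, against 6.75% of all tested probe sets. With the white adipocyte mean in place of the pan-leukocyte mean, RT1-Da and Cd74 differed by 1.45 and 1.12 (limma adjusted p = 0.131 and 0.165). RT1-Bb and RT1-S3 then differed by -0.41 and -0.60 (limma adjusted p = 0.787 and 0.731). RT1-CE5 kept a difference of -1.83 with the first covariate and passed (limma adjusted p = 0.0483), where 29 of the 21659 tested probe sets passed. With the second covariate its difference was -1.48 (limma adjusted p = 0.131). The part of these cells in the strain differences was not otherwise tested.

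**Figure D4:**
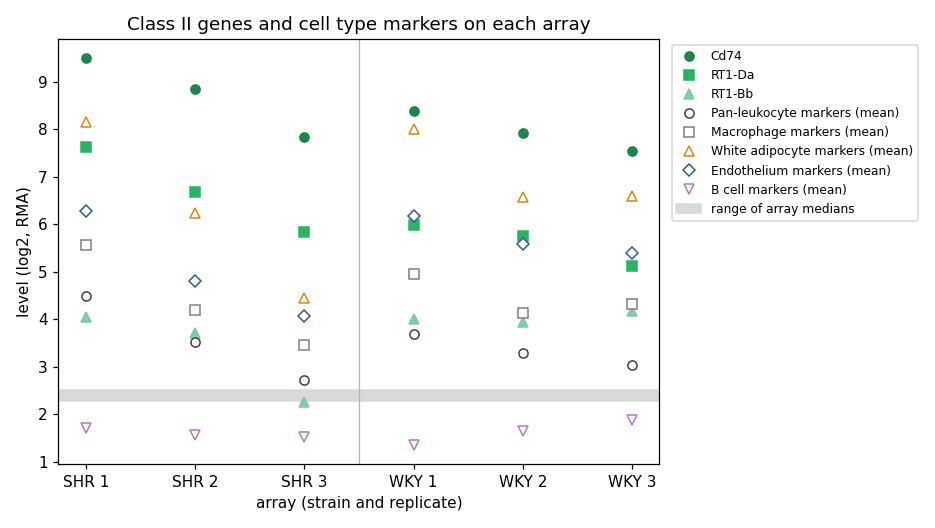
Levels (log2, RMA) of Cd74, RT1-Da and RT1-Bb (filled) and mean levels of marker lists for 5 cell types (open) on each of the 6 arrays, with SHR left of WKY. SHR replicate 1 is highest and SHR replicate 3 lowest for the pan-leukocyte, macrophage, white adipocyte and endothelial means, RT1-Da and Cd74 follow that order within SHR, and B cell markers stay under the array medians.

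Other genes of the class I pathway, taken as a list, had 0 of 14 passing and 2 with an unadjusted p under 0.05, both higher in SHR, where 3.01% of all tested probe sets were. Tapbpl, a relative of tapasin that edits peptides, lay at 4.92, 4.65 and 4.91 in SHR, against 3.95, 4.36 and 4.58 in WKY. The chaperone Hspa5 lay at 9.96, 9.68 and 9.65 in SHR, against 9.44, 9.39 and 9.25 in WKY. For both genes every SHR array was above every WKY array, and the limma adjusted p was 0.864 and 0.862. Calr, the calreticulin of the peptide-loading complex, had the highest mean of the list and differed by 0.34 (limma adjusted p = 0.921). Nlrc5, the coactivator of class I genes, was dim and differed by -0.11. The median difference over the list was 0.26, beside -0.01 for all tested probe sets, with 10 of 14 genes above 0. The mean level of the list was 7.09, 7.05 and 6.92 in SHR, against 6.94, 6.91 and 6.60 in WKY. The strains overlapped in it, and WKY replicate 3, the array that stood apart, was the lowest. Erap1, Tpp2 and Sec61a1 were far lower on that array (5.78, 4.56 and 7.23) than on the others.

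The class II pathway list had 0 of 16 passing and 1 with an unadjusted p under 0.05, the costimulatory ligand Cd80, where 5.55% of all tested probe sets had one. Cd80 lay at 2.93, 3.64 and 3.51 in SHR, against 2.47, 2.64 and 2.08 in WKY, with no overlap (difference 0.97 ± 0.24, SE; limma unadjusted p = 0.00437, adjusted p = 0.496). The WKY levels are near or under the highest array median. Cd80 has 2 probe sets, and these values are of the brighter one. The lysosomal proteases Ctsb and Ctsl, the pair of highest mean, differed by 0.08 and 0.08. Ctss, the protease that trims the invariant chain, lay at 6.60, 5.43 and 3.79 in SHR, against 5.80, 4.61 and 5.08 in WKY, again highest on SHR replicate 1 and lowest on SHR replicate 3. The 9 measured genes of the interferon gamma list had 0 passing and 0 with an unadjusted p under 0.05. Jak1 and Ifngr1, its pair of highest mean, differed by 0.06 and 0.34, and Ifng itself was dim, at 1.27, 2.02 and 1.35 in SHR and 1.58, 1.55 and 1.79 in WKY.

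RT1-CE5 and RT1-S3 are the members that pass under some other setting. With SHR replicate 1 and WKY replicate 3 both left out, where 0.531% of all tested probe sets passed, RT1-CE5 differed by -2.13 and RT1-S3 by -1.75 (limma adjusted p = 0.049 and 0.049). With array weights, where 0.3% of all passed, RT1-CE5 alone passed, with a difference of -1.92 (limma adjusted p = 0.0338).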

How the data were processed

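Levels of RNA were measured in 6 thoracic aorta samples on the Affymetrix Rat Gene 2.0 ST array. The authors deposited log2 values per probe set, which per the submitters' processing notes came from RMA as run by Expression Console 1.2.1. The log2 base follows from RMA's definition and from the values. Neither genome build nor annotation version is stated in the sources used here. Probe sets were named by the platform annotation, and 47 of 47 members matched RefSeq genes of GRCr8 by Entrez ID, used for chromosome and order. None of the members had an identical copy among the probe sets. The precision is limited by the number of arrays.

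Strain was the only term in limma 3.58.1 (R 4.3.3; lmFit, eBayes, two-sided), fitted to probe sets with a mean at or above 1.17, the 25th percentile, and tested on simulated data. Differences are SHR minus WKY. Members under the filter were fitted without it. Gene lists used the brightest probe set of a gene. Named in full were the classical, class II and processing members, other RT1- members with an unadjusted p under 0.05, and the 3 brightest remaining class I members. From each pathway list came genes with an unadjusted p under 0.05 and the brightest. RT1-M5, the other RT1-CE genes, Psmb9 against Psmb8, Psmb10, Nlrc5, Ctss and Ifng were singled out after their values were seen. Members, lists and tests were chosen with earlier results of these data known. Replicate numbers were not shown to pair the arrays. Deviations from the strain mean correlated at 0.35, -0.08 and 0.23 for numbers 1, 2 and 3. Between arrays of different numbers the correlations ran from -0.32 to 0.17. Promoter sequences and motif counts are from RefSeq (GRCr8), with motif letters set after looking at the sequences.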

Additional observations from a re-analysis of the deposited data

How the results depend on the processing

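The count of probe sets passing in limma over the whole table, 15, was 2 to 5 when single arrays were left out. It was 115 without both SHR replicate 1 and WKY replicate 3, and 65 with array weights. With the replicate block it was 3, but the labels do not state that the numbers pair the arrays. With the pan-leukocyte covariate it was 29 (this and the white adipocyte covariate were added once the data had been seen). It was 11 to 15 under the filter and normalization alternatives, the trend with a robust prior and the white adipocyte covariate. The count of members passing, 0, was 2 without both arrays, 1 with array weights and 1 with the pan-leukocyte covariate, and 0 under the other alternatives, where 6 to 11 members had an unadjusted p under 0.05, beside 3.57% to 6.81% of all tested probe sets (40 members tested, or 26 under the 50th percentile filter). The median difference of class I members, -0.11, was 0.054 without both arrays and -0.20 to -0.01 when single arrays were left out. The medians of class II and processing members moved by less than the spread between arrays in every setting. Leaving out single arrays kept the sign of 26 of 40 tested members in all 6 fits. Filters do not enter the medians, each gene has 1 probe set, and adding the probe sets of several genes left the class I median at -0.11. RT1-CE4 and RT1-CE15 were among the members left out by the 50th percentile filter. Dim levels limit what can be said of 17 class I members.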

Other observations

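Class I-like genes outside the RT1- symbols gave 1 further value. Hfe, which encodes a class I-like protein that pairs with beta-2-microglobulin and takes part in iron control, lay at 2.78, 2.67 and 2.92 in SHR, against 2.29, 2.41 and 2.10 in WKY. Every SHR array was above every WKY array, and the difference was 0.52 ± 0.15 (SE; limma unadjusted p = 0.0109, adjusted p = 0.655), at levels close to the array medians. Of the 7 tested genes of this list 0 passed. Fcgrt, the neonatal Fc receptor chain and the one of highest mean, differed by -0.17. Procr, the endothelial protein C receptor, lay at 6.00, 4.65 and 4.36 in SHR and 5.33, 4.86 and 5.23 in WKY, and Cd1d1, which presents lipids, at 4.17, 4.00 and 3.82 in SHR and 4.81, 4.14 and 4.02 in WKY. For Procr and Cd1d1, as for the endothelial marker mean, SHR replicate 3 was the lowest array.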
